A study of Mus musculus with 18 samples.

Results

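Described here are 36 mouse genes of glycolysis and of the response to low oxygen, in the brain around metastases of 3 cancers. The members were chosen by name, with earlier results of these data known. All 36 were found among the 55416 gene identifiers of the count table. All 36 also passed the filter on low counts, among 17174 genes tested. Grouped by role they are 7 genes of the steps from hexokinase to aldolase, 7 of the steps from triose phosphate to pyruvate, 8 lactate enzymes, metabolic switches and transporters, 4 genes of the oxygen-sensing machinery and 10 effectors that hypoxia is known to raise.

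The libraries are poly(A)+ RNA-seq of whole tissue resected from the peritumoral area of wild-type mouse brains, 1 brain a library and 6 brains a model, taken 10 days after injection of 40000 cells. Mice of the melanoma model had received B16-F10-BrM4 cells, those of the lung cancer model 482N1 cells and those of the breast cancer model EO771-BrM3 cells, so that each cancer is represented by 1 cell line. The study asked how the tissue around a metastasis differs between these models, and tumour-free brain was not analysed here, so that each value is set against another tumour model only. Libraries are called by their numbers in the labels, which are 1 to 6 (melanoma), 7 to 11 with 13 (lung), and 14 to 19 (breast). In bulk tissue, fewer cells of a type and less RNA per cell cannot be told apart.

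Glucose is split to pyruvate by glycolysis, and pyruvate is either burnt in mitochondria or turned to lactate, which leaves the cell through monocarboxylate transporters. When oxygen is short, prolyl hydroxylases no longer mark the HIF alpha subunits for destruction, and HIF then binds a short core motif, ACGTG or GCGTG, in the promoters and enhancers of glycolytic and other target genes. In brain, neurons and astrocytes express different glycolytic isozymes, and many tumours run glycolysis even with oxygen present.

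Depth was 7366250 to 14533877 counts a library, and the members together took 0.850% to 1.20% of them. The tissue label was met in every library: markers of neurons, astrocytes, microglia, oligodendrocytes and endothelium were all detected, with none of their 30 genes at 0. RNA of the 6 melanocyte markers made up 0.359% to 2.25% of the reads in the melanoma libraries and at most 0.000823% elsewhere. Melanoma library 3 and breast libraries 18 and 19 stood apart, since long transcripts were under-represented in them: the slope of the log2 level on log2 transcript length, relative to the mean of all libraries, was -0.19, -0.22 and -0.18 there against -0.10 to 0.15 in the other 15. Every test of the members was repeated without these 3, and the calls that ended are named.

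To show what the HIF motif looks like in members whose level differed most between models, the 250 bases before the start of 4 genes high in the breast model (Egln3, Adm, P4ha2 and Slc16a3) and of Car9, which was high in the melanoma model, are printed 5′ to 3′ on the gene's own strand, with each match to ACGTG or GCGTG on either strand in capitals. Sequences and coordinates are from RefSeq on GRCm38.p6, which is not the build of the counts. Egln3 lies on the minus strand at chr12:54203875-54204124, and the others on the plus strand at chr7:110627407-110627656 (Adm), chr11:54100674-54100923 (P4ha2), chr11:120948817-120949066 (Slc16a3) and chr4:43506776-43507025 (Car9).
Egln3: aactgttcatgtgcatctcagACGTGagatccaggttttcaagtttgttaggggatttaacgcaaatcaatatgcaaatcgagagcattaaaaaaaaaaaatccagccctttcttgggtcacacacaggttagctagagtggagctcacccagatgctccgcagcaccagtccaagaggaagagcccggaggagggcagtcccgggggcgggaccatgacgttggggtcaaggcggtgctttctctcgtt
Adm: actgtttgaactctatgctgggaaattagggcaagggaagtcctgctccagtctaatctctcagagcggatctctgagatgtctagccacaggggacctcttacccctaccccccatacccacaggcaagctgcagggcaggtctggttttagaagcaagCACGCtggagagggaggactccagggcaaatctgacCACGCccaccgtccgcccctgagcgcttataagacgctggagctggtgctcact
P4ha2: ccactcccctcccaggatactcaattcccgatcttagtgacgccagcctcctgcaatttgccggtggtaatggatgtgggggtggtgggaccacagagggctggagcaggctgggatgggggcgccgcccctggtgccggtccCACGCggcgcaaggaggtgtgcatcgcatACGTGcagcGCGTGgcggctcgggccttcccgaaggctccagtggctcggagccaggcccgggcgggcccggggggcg
Slc16a3: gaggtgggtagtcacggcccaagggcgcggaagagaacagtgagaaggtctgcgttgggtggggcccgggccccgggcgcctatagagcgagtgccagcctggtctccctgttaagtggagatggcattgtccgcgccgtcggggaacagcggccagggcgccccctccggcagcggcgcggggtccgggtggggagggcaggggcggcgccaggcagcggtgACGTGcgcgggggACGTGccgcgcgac
Car9: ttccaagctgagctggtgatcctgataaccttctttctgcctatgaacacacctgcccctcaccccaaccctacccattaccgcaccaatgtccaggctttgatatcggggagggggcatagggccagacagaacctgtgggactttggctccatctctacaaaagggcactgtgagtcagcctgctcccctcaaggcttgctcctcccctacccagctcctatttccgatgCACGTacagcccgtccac

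The match in Egln3 began 229 bases before the start, those in Adm 90 and 54, those in P4ha2 107, 78 and 69, those in Slc16a3 27 and 14, and that in Car9 18. Of the 32 members with a RefSeq promoter (300 bases, 250 before and 50 after the start), 29 (90.6%) held at least 1 match in any of their promoters, against 46.7% of the 27025 genes with a promoter. Gpi1, Tpi1 and Eno2 held none, and Ndrg1, Slc2a3, Epas1 and Bnip3l had no entry. With ACGTG alone the counts were 22 of 32 members (68.8%) and 21.8% of genes, and with GCGTG alone 21 of 32 and 35.2%. A CACGTG was counted on both strands as a pair of overlapping matches. The members' promoters also held more G and C, with a median of 64.0% against 52.7% and 22 CpG against 7 in all 32851 promoters, and the part of this in the motif counts was not tested. A match is a description of the letters, not evidence that a factor binds there.

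Differences were tested with edgeR's quasi-likelihood test over all 18 libraries and 17174 genes, and a gene was called when its Benjamini-Hochberg adjusted p was under 0.05. All adjusted p-values below are of this test unless another is named, log2 fold changes are given ± SE with the first-named model over the second, and levels are CPM on TMM-scaled library sizes, given as the lowest, median and highest of 6 libraries. Between melanoma and breast, 21 of the 36 members were called (58.3%), against a background of 28.9% of all genes. Between melanoma and lung 11 were called (30.6%; background 23.2%), and between breast and lung 9 (25.0%; background 18.3%). In the test of any difference among the models, 20 members were called (55.6%; background 35.8%). The median log2 fold change of the members was 0.19, 0.09 and 0.05 in these 3 comparisons, against 0.04, 0.02 and -0.02 over all genes. Members whose libraries did not overlap between the models numbered 12 (background 17.1%), 5 (background 14.3%) and 8 (background 14.9%).

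Melanoma and breast thus differed in the most members, and they did so in both directions: 10 were higher in melanoma (background 9.76% of all genes) and 11 higher in breast (background 19.2%). By role the directions were unequal. In the steps from hexokinase to pyruvate, 7 of 14 members were called, all higher in melanoma. Among the oxygen-sensing genes and effectors, 8 of 14 were called, 7 of them higher in breast and 1, Car9, higher in melanoma.

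Called in the same direction against both other models, and so set apart in 1 model, were 16 members, 3 of them in a pair of models. Melanoma was highest for Gpi1, Pfkl, Pfkp, Tpi1, Eno1, Ldhb and Car9 (19.4% of members; background 4.88%), and lowest for Pfkfb4, Slc16a1 and Adm (8.33%; background 10.2%). Breast was highest for Slc16a1, Slc16a3, Egln3, Ndrg1, Adm, P4ha1 and P4ha2 (19.4%; background 7.79%) and lowest for Pdk1 (2.78%; background 1.74%). Lung was highest for Pfkfb4 alone (2.78%; background 4.2%) and lowest for no member.

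**Figure D1:**
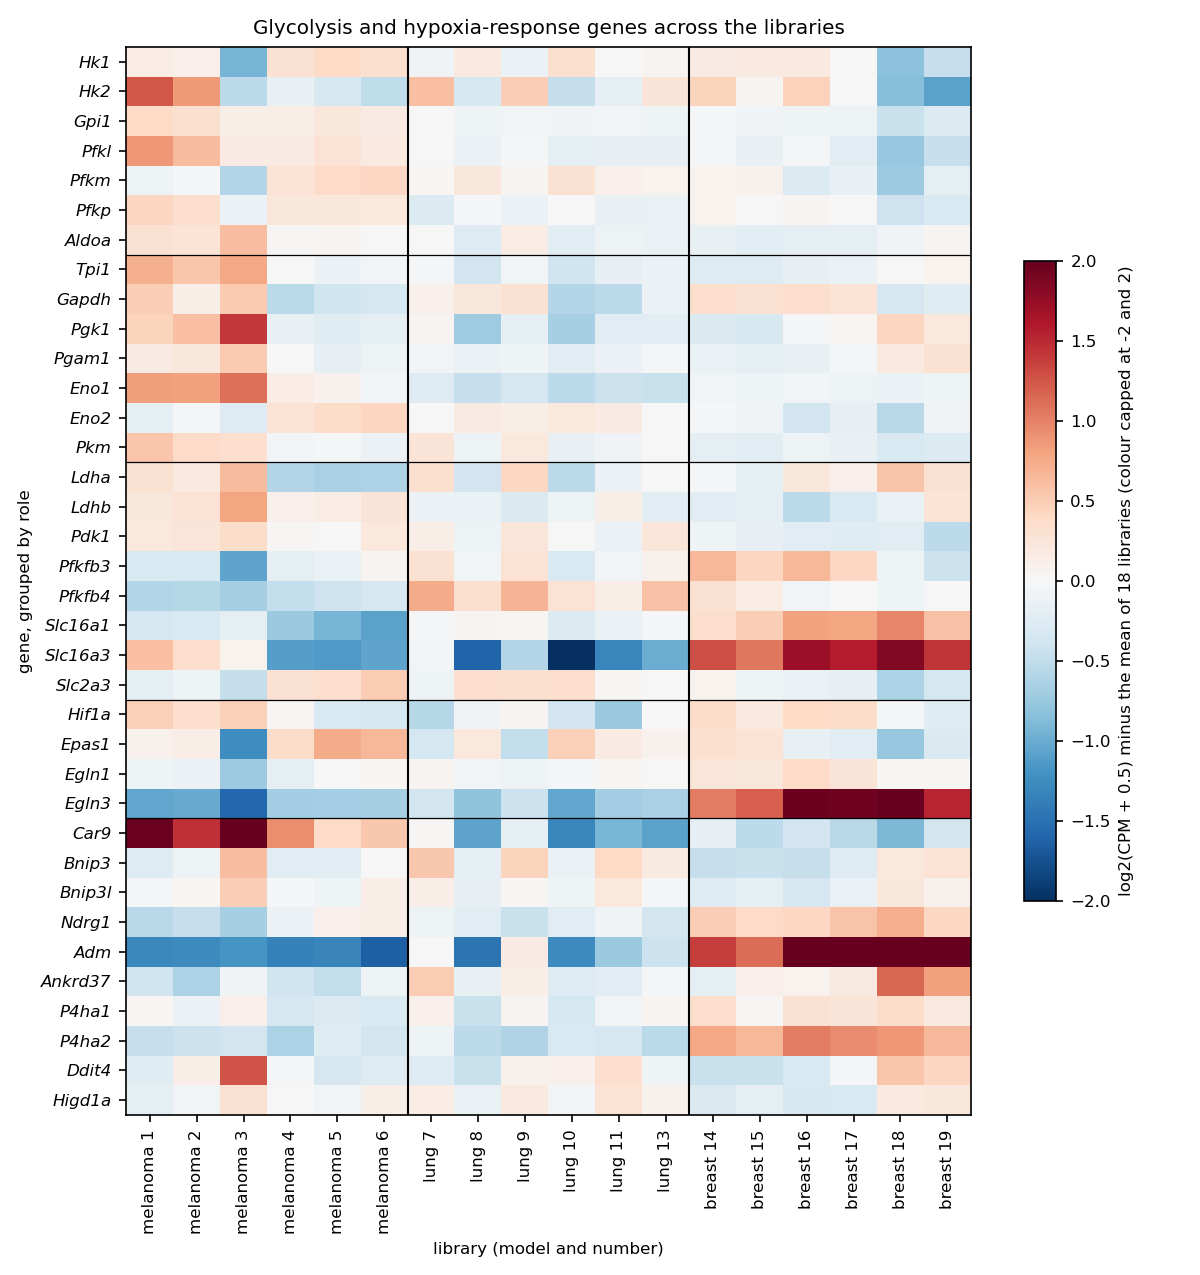
Level of each of the 36 members (rows, by role) in each of the 18 libraries (columns, by model), as log2(CPM + 0.5) minus the mean over libraries, with colours ending at -2 and 2. High values are seen in melanoma libraries 1, 2 and 3 for Eno1, Tpi1 and Car9, and in all breast libraries for Egln3, Adm, P4ha2 and Slc16a3.

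In the steps from hexokinase to aldolase, 3 of 7 members were called higher in melanoma than in lung (background 8.51% of all genes). Against breast, 4 of 7 were called higher in melanoma (background 9.76%), and none was called between breast and lung (background 18.3%). Pfkl, the liver-type subunit of phosphofructokinase, which commits sugar to glycolysis, measured 255, 271 and 419 CPM in melanoma, 200, 208 and 231 in lung, and 136, 202 and 224 in breast. No melanoma library overlapped with either other model. The log2 fold change was 0.52 ± 0.14 over lung (adjusted p = 0.011) and 0.67 ± 0.14 over breast (adjusted p = 0.0013).

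Gpi1, glucose-6-phosphate isomerase, was also separate in all libraries, at 467, 498 and 569 CPM in melanoma against 408, 415 and 429 in lung and 319, 405 and 428 in breast. Its differences were small, at 0.29 ± 0.09 over lung (adjusted p = 0.023) and 0.38 ± 0.09 over breast (adjusted p = 0.0025). The call against lung ended without melanoma library 1 (adjusted p = 0.060) or 2 (adjusted p = 0.056).

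Pfkp, the platelet-type phosphofructokinase subunit, read 262, 330 and 379 CPM in melanoma, 234, 260 and 280 in lung and 212, 281 and 299 in breast, with overlap through melanoma library 3 only. Its log2 fold changes were 0.35 ± 0.11 over lung (adjusted p = 0.026) and 0.32 ± 0.11 over breast (adjusted p = 0.033). Both calls ended without melanoma library 1 or 2, that against lung also without lung library 7 or 13 (adjusted p up to 0.067), and that against breast also with only those models in the fit (adjusted p = 0.097).

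Aldoa, the aldolase of muscle and brain, had the highest per-length level of all members. It read 2409 ± 183, 1803 ± 171 and 1629 ± 228 TPM in melanoma, lung and breast (mean ± SD, n = 6). Breast libraries 18 and 19, poor in long transcripts, were the lowest of their model in TPM (1345 each) but the highest in CPM (1900 and 2089). In CPM Aldoa ranged from 2014 to 3066 in melanoma, 1680 to 2219 in lung and 1726 to 2089 in breast. It was called between melanoma and breast (log2 fold change 0.35 ± 0.11, adjusted p = 0.025), a call that ended without breast library 15, 16 or 17 (adjusted p up to 0.052) and with only those models in the fit. Against lung it missed the threshold (0.31 ± 0.11, adjusted p = 0.053), and it passed in DESeq2 (0.36, adjusted p = 0.016), in limma on the deposited CPM, with DESeq2's size factors and without melanoma library 4, 5 or 6, lung library 9 or breast library 19. The other 3 members of this stretch were called in no comparison: Hk1, the hexokinase of neurons, ranged from 162 to 408 CPM over all 18 libraries, the inducible Hk2 from 16.1 to 81.2, and Pfkm, the muscle-type subunit, from 220 to 484. Without melanoma library 3, Hk1 (0.38, adjusted p = 0.049) and Pfkm (0.43, adjusted p = 0.015) were called higher in melanoma than in breast.

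From triose phosphate to pyruvate, 3 of 7 members were called higher in melanoma than in lung (background 8.51% of all genes). Against breast, 3 of 7 were called higher in melanoma (background 9.76%), and again none was called between breast and lung (background 18.3%). Eno1, the widely expressed enolase, showed the largest difference of the stretch, at 267, 398 and 592 CPM in melanoma, 193, 205 and 231 in lung and 255, 261 and 267 in breast. Every melanoma library lay above every lung library, while the lowest melanoma library met the highest breast library at 267 CPM. The log2 fold change was 0.96 ± 0.16 over lung (1.95-fold, adjusted p = 1.6e-04) and 0.64 ± 0.16 over breast (1.56-fold, adjusted p = 0.0051).

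Tpi1, triose phosphate isomerase, read 765, 1024 and 1415 CPM in melanoma, 623, 747 and 805 in lung, and 689, 748 and 868 in breast. Melanoma libraries 5 and 6 lay within the range of lung and libraries 4, 5 and 6 within that of breast. Its log2 fold changes were 0.55 ± 0.15 over lung (adjusted p = 0.013) and 0.48 ± 0.15 over breast (adjusted p = 0.024). The call against breast ended without melanoma library 1 or 2 (adjusted p up to 0.060) and with only those models in the fit.

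Pkm, pyruvate kinase, was called only between melanoma and breast (0.41 ± 0.12, adjusted p = 0.015), at 1354, 1647 and 2148 CPM in melanoma and 1184, 1273 and 1358 in breast, with 1327, 1437 and 1746 in lung. The lowest melanoma library lay just under the highest breast library. Pgk1, phosphoglycerate kinase, was called only against lung (0.75 ± 0.25, adjusted p = 0.033), and 1 library held much of this: melanoma library 3 read 197 CPM against 62.4 to 113 in the other 5. Without it the difference was 0.46 (adjusted p = 0.085), and the call also ended without melanoma library 1 or 2 or lung library 8, 10 or 13, without the 3 libraries poor in long transcripts (0.46, adjusted p = 0.054), in both limma fits and with only those models in the fit (adjusted p up to 0.075).

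Eno2, the neuronal enolase, and Pgam1, phosphoglycerate mutase, were called in no comparison. Eno2 was lowest in breast on average, at 632 ± 85.5 CPM (SD, n = 6) against 790 ± 161 in melanoma and 787 ± 49.3 in lung, and its adjusted p was 0.073 between melanoma and breast and 0.11 between breast and lung, although every breast library lay below every lung library. Other fits called Eno2 higher in melanoma than in breast, among them DESeq2 (0.36, adjusted p = 0.013), limma on the deposited CPM (0.36, adjusted p = 0.037) and that without melanoma library 3 (0.44, adjusted p = 0.0087). Breast below lung was called in DESeq2 (-0.31, adjusted p = 0.0497), with only those models in the fit, and without melanoma library 3 or 6. Gapdh, glyceraldehyde-3-phosphate dehydrogenase and a common reference gene, read 4.55, 6.38 and 10.1 CPM in melanoma, 4.40, 6.85 and 8.54 in lung, and 5.31, 8.45 and 8.90 in breast. It was called in no comparison, with log2 fold changes of 0.11 ± 0.23, 0.22 ± 0.23 and -0.11 ± 0.23 for melanoma over lung, breast over lung and melanoma over breast.

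Per length, Gapdh read 5.05, 4.45 and 4.95 TPM in melanoma, lung and breast, far below the next lowest enzyme of the stretch, Pgam1, at 61.8, 49.2 and 48.5 TPM. The gene is known for its many near-identical copies in the genome. Of the 50-base windows of its longest transcript, 82.5% also occur in transcripts of other genes, 218 in number, of which 209 are pseudogenes. The same share was 72.2% for Eno1, 68.0% for Pgk1, 41.5% for Pgam1, 34.4% for Pkm, 27.0% for Ldhb, 23.4% for Bnip3l, 21.9% for Bnip3, 19.3% for Gpi1, 16.6% for Ldha and 13.5% for Aldoa. It was under 8% for the other 25 members. How reads that match several genes were counted is not given in the sources used here, so the levels of these 11 genes, and the Eno1 difference among them, are uncertain to the extent that such reads were dropped or assigned elsewhere.

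**Figure D2:**
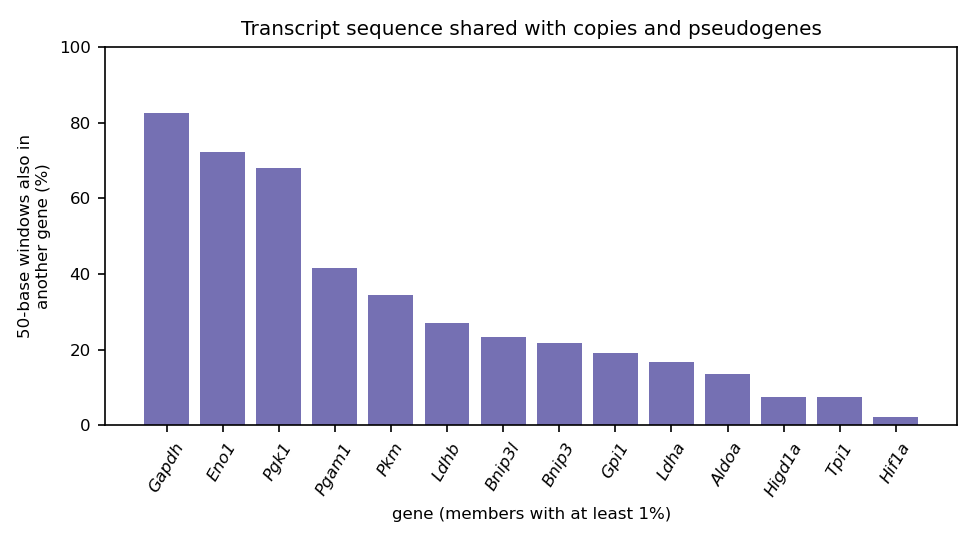
Share of the 50-base windows of each member's transcript that also occur in a transcript of another gene (percent, y axis), for the 14 members with at least 1% (x axis). Gapdh at 82.5%, Eno1 at 72.2% and Pgk1 at 68.0% stand above all others.

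Among the 8 lactate enzymes, switches and transporters, 3 were called between melanoma and lung (background 23.2% of all genes). Between breast and lung 4 were called (background 18.3%), and between melanoma and breast 6 (background 28.9%). The transporters that carry lactate across the membrane were highest in breast. Slc16a3, the lactate exporter MCT4 and a HIF target, read 114, 154 and 196 CPM in breast against 12.4, 24.4 and 52.3 in lung and 24.4, 41.4 and 82.4 in melanoma. No breast library overlapped with either other model.

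The log2 fold change of Slc16a3 was 2.47 ± 0.36 for breast over lung (5.55-fold, adjusted p = 4.8e-05) and -1.71 ± 0.35 for melanoma over breast (adjusted p = 8.5e-04). Melanoma over lung was 0.76 ± 0.35 (adjusted p = 0.13), and without lung library 7, the highest of its model, it was 1.04 (adjusted p = 0.035). Slc16a1, the transporter MCT1 of endothelium and glia, was also highest in breast, with smaller steps, at 104, 131 and 160 CPM in breast, 67.0, 79.7 and 84.3 in lung and 38.5, 56.1 and 70.8 in melanoma.

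Breast was separate from both other models for Slc16a1, with a log2 fold change of 0.74 ± 0.15 over lung (adjusted p = 0.0012) and, for melanoma over breast, -1.25 ± 0.15 (adjusted p = 2.4e-06). Melanoma lay below lung by -0.51 ± 0.15 (adjusted p = 0.017), but the ranges overlapped, and this call ended without melanoma library 4 (adjusted p = 0.13), 5 or 6 and with no filter on low counts. Per transcript length, Slc16a3 made up 49.6% ± 2.3 of the 2 transporters together in breast, 39.5% ± 8.5 in melanoma and 21.9% ± 8.1 in lung (mean ± SD, n = 6).

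**Figure D3:**
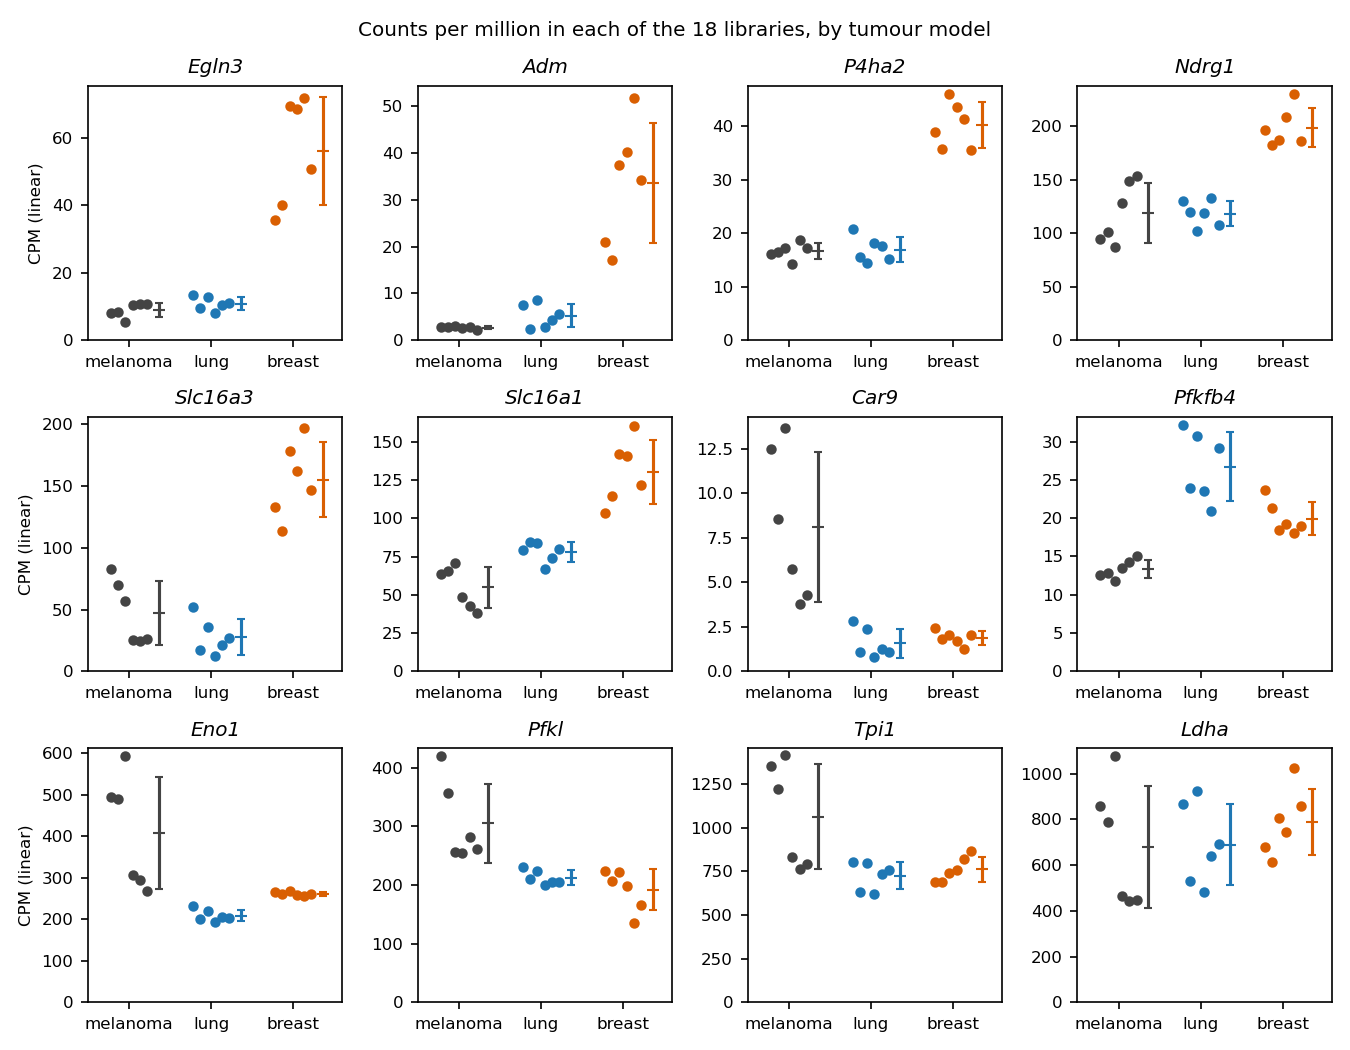
Levels (CPM, linear axis) of 11 members set apart in a model and of Ldha, each point a library, with the mean and SD of 6 libraries for each model. Breast libraries lie above the others for Egln3, Adm, P4ha2 and Slc16a3, and melanoma libraries lie above the others for Car9.

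The switch enzymes Pfkfb3 and Pfkfb4 set the level of fructose 2,6-bisphosphate, which speeds phosphofructokinase, and both are known HIF targets. Pfkfb4 was the only member called higher in lung than in both other models, at 21.0, 26.5 and 32.2 CPM, against 18.04, 19.1 and 23.7 in breast and 11.8, 13.1 and 15.1 in melanoma. Melanoma was separate from both, while lung and breast overlapped.

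For Pfkfb4 the log2 fold change was -1.002 ± 0.12 for melanoma over lung (adjusted p = 2.7e-06), -0.42 ± 0.12 for breast over lung (adjusted p = 0.017) and -0.58 ± 0.12 for melanoma over breast (adjusted p = 9.0e-04). All 3 calls held in every fit made. Pfkfb3 was called only between melanoma and breast (-0.62 ± 0.20, adjusted p = 0.022), with 37.2 ± 8.6 CPM in melanoma and 56.9 ± 15.9 in breast (SD, n = 6), and that call ended without breast library 14 or 16 (adjusted p up to 0.059), with only those models in the fit and in limma on the deposited CPM.

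Ldhb, the lactate dehydrogenase chain that predominates in neurons, read 418, 460 and 669 CPM in melanoma, 318, 355 and 420 in lung and 270, 337 and 471 in breast, with overlap in both pairs. Its log2 fold change was 0.44 ± 0.14 over lung (adjusted p = 0.023) and 0.48 ± 0.14 over breast (adjusted p = 0.011). The call against lung ended without melanoma library 3 (0.33, adjusted p = 0.056), lung library 9 or lung library 13. Ldha, the hypoxia-inducible chain, was called in no comparison, at 442, 626 and 1079 CPM in melanoma, 481, 668 and 925 in lung and 615, 777 and 1026 in breast. Its largest difference was -0.21 ± 0.23 for melanoma over breast (adjusted p = 0.50), a size that was not detectable beside its spread within models.

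Pdk1, the kinase that closes the entry of pyruvate to the mitochondrion, was lowest in breast, at 49.3, 61.3 and 66.6 CPM against 65.1, 74.1 and 84.5 in lung and 70.7, 82.4 and 91.4 in melanoma. Melanoma and breast did not overlap, and melanoma over breast was 0.42 ± 0.10 (adjusted p = 0.0037). Breast over lung was -0.31 ± 0.10 (adjusted p = 0.041), a call lost in 8 of the 18 fits that left out 1 library (melanoma 4, lung 7, 9, 10 or 13, and breast 15, 16 or 17; adjusted p up to 0.097) and with no filter on low counts (adjusted p = 0.12). Slc2a3, the neuronal glucose transporter GLUT3, was called in no comparison, at 76.1, 115 and 151 CPM in melanoma, 98.6, 120 and 135 in lung and 68.4, 95.9 and 111 in breast. Without melanoma library 3 it was called lower in breast than in lung (-0.41, adjusted p = 0.036) and higher in melanoma than in breast (0.45, adjusted p = 0.017).

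The oxygen sensors showed the clearest single gene. Egln3, the prolyl hydroxylase PHD3, is itself a HIF target and marks HIF alpha for destruction. It read 35.7, 59.6 and 71.7 CPM in breast, 8.22, 10.7 and 13.4 in lung and 5.48, 9.46 and 10.7 in melanoma.

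The lowest breast library thus held more than 2 times the highest of any other model. The log2 fold change of Egln3 was 2.36 ± 0.20 for breast over lung (5.12-fold, adjusted p = 7.0e-08) and -2.64 ± 0.21 for melanoma over breast (6.23-fold, adjusted p = 1.3e-08), with no call between melanoma and lung (-0.28 ± 0.20, adjusted p = 0.38). Per length, Egln3 made up 37.1% ± 7.2 of Egln1 and Egln3 together in breast, against 12.01% ± 1.84 in lung and 11.02% ± 1.22 in melanoma (mean ± SD, n = 6).

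Egln1, the main prolyl hydroxylase in most cells, differed far less, at 111, 128 and 142 CPM in breast, 102, 108 and 113 in lung and 65.4, 101.3 and 112 in melanoma. It was called only for melanoma over breast (-0.36 ± 0.11, adjusted p = 0.020), and this ended without melanoma library 4 or breast library 16 (adjusted p up to 0.051), with no filter and with only those models in the fit. Hif1a, which encodes the HIF alpha subunit that the hydroxylases control, was called in no comparison, at 26.8, 39.7 and 48.1 CPM in melanoma, 20.4, 29.5 and 35.7 in lung and 28.9, 42.0 and 45.3 in breast. Lung was lowest on average, with melanoma over lung at 0.42 ± 0.18 (adjusted p = 0.12) and breast over lung at 0.46 ± 0.18 (adjusted p = 0.092). The first became a call without melanoma library 5 or 6 (adjusted p = 0.046 and 0.039), and the second without the 3 libraries poor in long transcripts (0.54, adjusted p = 0.041). Epas1, the HIF2 alpha subunit strong in endothelium, ranged from 36.6 to 146 CPM and was called in none, but without melanoma library 3 was called higher in melanoma than in breast (0.57, adjusted p = 0.027).

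Of the 10 hypoxia-response effectors, 4 were called higher in breast than in lung (background 11.2% of all genes) and none lower (background 7.16%). Against melanoma, 5 were called higher in breast (background 19.2%) and 1 lower (background 9.76%). Adm encodes adrenomedullin, a secreted peptide that widens vessels and is strongly raised by hypoxia. Adm read 17.2, 35.8 and 51.7 CPM in breast, 2.49, 4.97 and 8.68 in lung and 2.15, 2.82 and 3.13 in melanoma.

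Breast was separate from both, with a log2 fold change of 2.66 ± 0.30 over lung (6.33-fold, adjusted p = 2.3e-06), and melanoma over breast was -3.60 ± 0.32 (12.1-fold, adjusted p = 6.1e-08). Melanoma and lung overlapped, and the call between them (-0.94 ± 0.31, adjusted p = 0.034) ended in 8 of the 18 fits that left out 1 library (melanoma 1, 2, 4, 5 or 6, and lung 7, 9 or 13; adjusted p up to 0.11) with no filter on low counts and in both limma fits.

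P4ha2 and P4ha1 encode catalytic subunits of the prolyl 4-hydroxylase that modifies collagen in the endoplasmic reticulum. P4ha2 read 35.5, 40.1 and 45.9 CPM in breast, 14.5, 16.6 and 20.8 in lung and 14.3, 16.8 and 18.8 in melanoma. The spread within each model was small and breast was separate, with a log2 fold change of 1.24 ± 0.11 over lung (2.37-fold, adjusted p = 8.0e-08) and, for melanoma over breast, -1.27 ± 0.11 (adjusted p = 4.4e-08).

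P4ha1 followed with a smaller step, at 110, 131 and 140 CPM in breast, 79.4, 108 and 117 in lung and 85.6, 94.6 and 116 in melanoma, with overlap in both pairs. Its call over lung (0.35 ± 0.12, adjusted p = 0.046) was lost in 11 of the 18 fits that left out 1 library (adjusted p up to 0.16) and in 7 of 11 other fits (adjusted p up to 0.12), among them all 3 other scalings (DESeq2's size factors, library totals and upper quartile), no filter on low counts and the fit without the 3 libraries poor in long transcripts (0.27, adjusted p = 0.11). The difference of melanoma over breast (-0.39 ± 0.12, adjusted p = 0.015) was no call without melanoma library 4, 5 or 6 or breast library 18 (adjusted p up to 0.10), or with no filter.

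Ndrg1, a hypoxia-induced gene that myelinating cells also express, read 183, 192 and 230 CPM in breast, 102, 119 and 132 in lung and 87.6, 115 and 153 in melanoma. Breast was separate, with a log2 fold change of 0.74 ± 0.14 over lung (adjusted p = 5.3e-04), and melanoma over breast was -0.74 ± 0.14 (adjusted p = 3.0e-04). Ankrd37, a HIF target, was called for melanoma over breast only (-0.81 ± 0.22, adjusted p = 0.0093). Its highest value, 17.3 CPM, was in breast library 18, without which the call ended (-0.55, adjusted p = 0.051), as it did without the 3 libraries poor in long transcripts (-0.41, adjusted p = 0.074).

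Car9 went the other way. It encodes carbonic anhydrase 9, an enzyme of the cell surface, and is among the most hypoxia-specific HIF targets. Car9 read 3.80, 7.17 and 13.6 CPM in melanoma, 0.830, 1.17 and 2.86 in lung and 1.26, 1.91 and 2.44 in breast.

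Melanoma was separate from both models, with a log2 fold change of 2.35 ± 0.35 over lung (5.08-fold, adjusted p = 3.8e-05) and 2.09 ± 0.35 over breast (4.26-fold, adjusted p = 1.1e-04). The level was low in all models, with 609 reads in the 6 melanoma libraries together, 125 in lung and 128 in breast. The remaining 4 effectors, the mitophagy receptors Bnip3 and Bnip3l, the mTORC1 inhibitor Ddit4 and the mitochondrial protein Higd1a, were called in no comparison. Without the 3 libraries poor in long transcripts Bnip3 was called lower in melanoma (-0.38, adjusted p = 0.028) and in breast (-0.70, adjusted p = 0.0012) than in lung. Called lower in breast than in lung in that fit were also Higd1a (-0.43, adjusted p = 0.0026) and Bnip3l (-0.31, adjusted p = 0.014), and the latter pair were also called higher in melanoma than in breast (0.31, adjusted p = 0.020, and 0.30, adjusted p = 0.016).

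**Figure D4:**
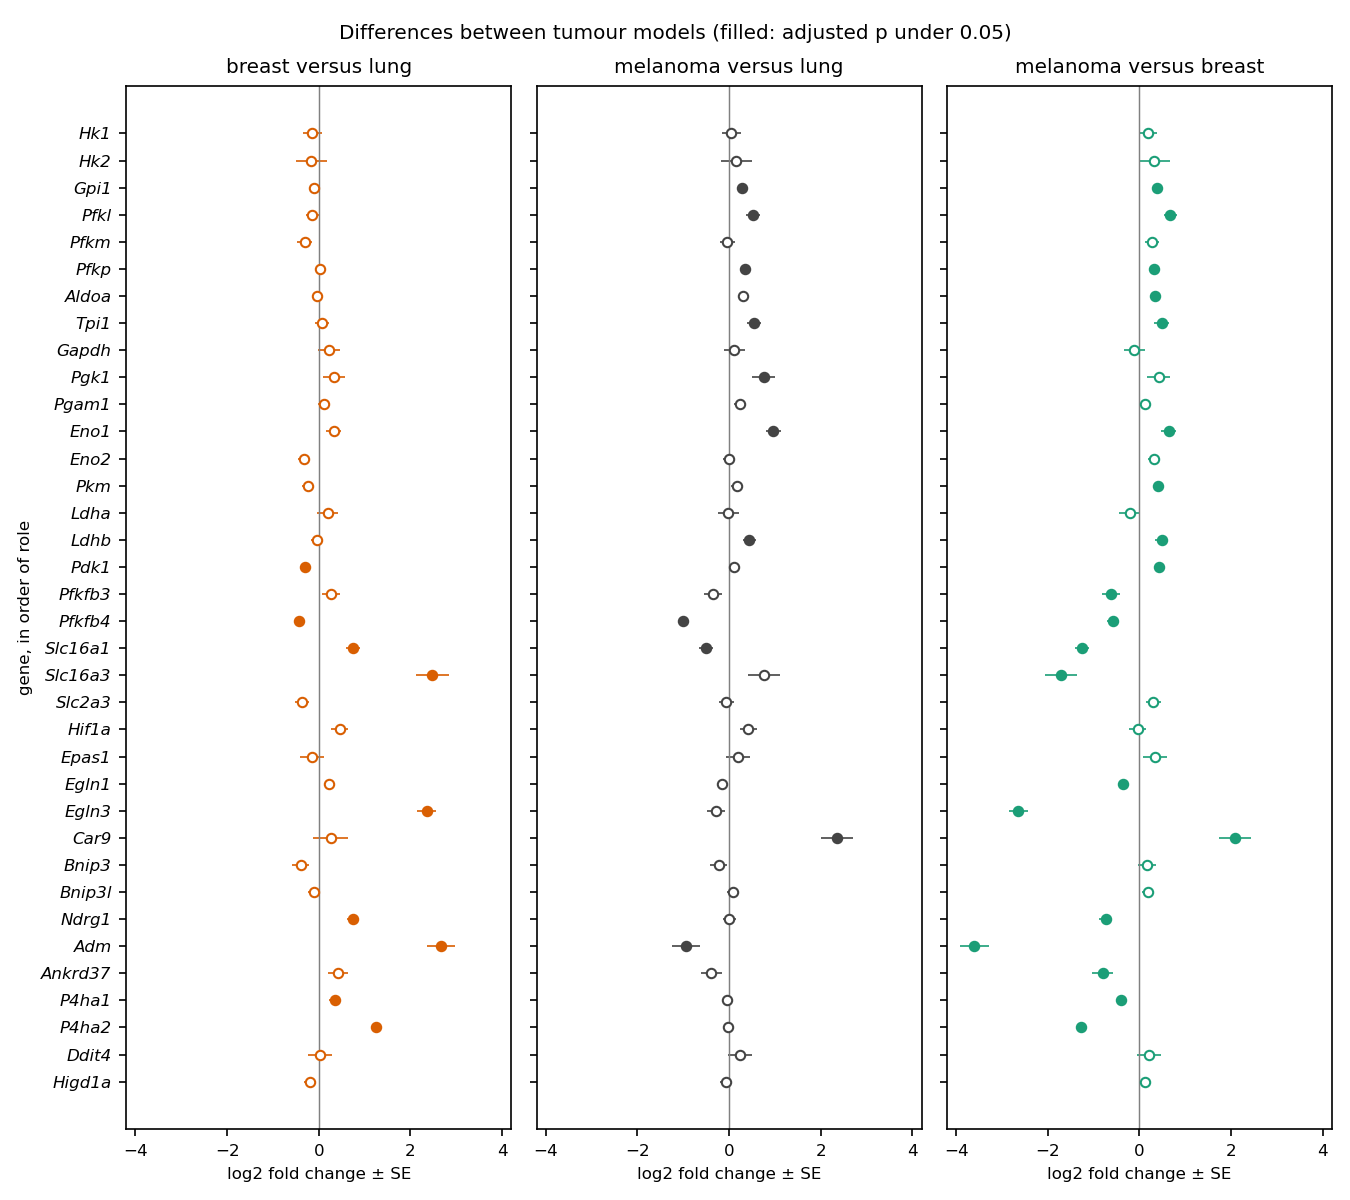
Log2 fold change of each member (y axis, by role) in the 3 comparisons, 1 panel a comparison, with bars of 1 SE and filled points for members called at an adjusted p under 0.05. Adm, Egln3 and Slc16a3 lie farthest toward breast, at 2.66, 2.36 and 2.47 over lung, and Car9 lies farthest toward melanoma, at 2.35 over lung.

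The markers of other cells moved with these groups. In breast, where Egln3, Adm and Slc16a3 were high, the summed level of the 6 neutrophil and monocyte markers was 171 to 375 CPM, against 34.8 to 267 in lung and 5.56 to 26.7 in melanoma, and at most 1 of the 6 was at 0 in any library. All 6 of these markers were called lower in melanoma than in each other model, and none was called between breast and lung. The red blood cell markers summed to 250 to 894 CPM in breast, 79.0 to 435 in lung and 87.2 to 164 in melanoma. The 6 epithelial markers summed to 259 to 1221 CPM in lung, 63.0 to 164 in breast and 2.32 to 4.54 in melanoma, with 1 or 2 of the 6 at 0 in the breast and melanoma libraries. The 6 proliferation markers summed to 503 to 747 CPM in breast, above every lung library (232 to 461), and to 241 to 1069 in melanoma. Singly, 1 of these 6 was called higher in breast than in lung (background 11.2% of all genes). Likewise, 1 of the 6 had breast and lung libraries that did not overlap (background 14.9%). The part of these cells in the differences was not tested.

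The breast libraries did not carry these genes equally. Libraries 14 and 15 were the lowest of the model for Egln3 (35.7 and 40.2 CPM), Adm (20.9 and 17.2), Slc16a3 (133 and 114) and Slc16a1 (104 and 114). Library 18 was the highest for all 4, at 71.7, 51.7, 196 and 160 CPM, and also for Ndrg1 at 230. The summed neutrophil and monocyte markers were 190 and 171 CPM in libraries 14 and 15 and 375 in library 18, whose total of 7366250 counts was the smallest of the study. Much of the sum in library 18 was S100a8 and S100a9, at 119 and 123 CPM. Csf3r and Ccr2 went the other way, at 26.0 and 27.0 CPM in library 18, 53.3 and 36.3 in library 14 and 38.2 and 32.4 in library 15. Library 18 also had the highest and libraries 14 and 15 the lowest sums of the model for proliferation markers (747 CPM against 503 and 516) and epithelial markers (164 against 63.0 and 68.1). The epithelial sums were nearly all Krt8 (161 CPM against 58.7 and 62.7). Single markers of these lists went the other way, among them Mki67 (27.8 CPM in library 18 against 63.6 and 56.0) and Krt18 (1.26 against 2.91 and 3.52). With library 18, library 19 and melanoma library 3 left out, breast over lung was still 2.23 for Egln3 (adjusted p = 3.4e-07), 2.39 for Adm (adjusted p = 3.4e-05) and 2.34 for Slc16a3 (adjusted p = 4.3e-04).

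Lung libraries 7 and 9 likewise stood together at the high end of several members. Slc16a3 read 52.3 and 36.2 CPM there against 12.4 to 27.1 in the other 4, Hk2 52.2 and 48.4 against 24.4 to 41.1, Ldha 868 and 925 against 481 to 694, and Car9 2.86 and 2.37 against 0.830 to 1.25. These libraries also had the highest sums of neutrophil and monocyte markers of their model, at 267 and 138 CPM against 34.8 to 65.8. Their sums of epithelial markers were the highest as well, at 1000 and 1221 CPM against 259 to 824. Krt8 and Krt18 made up most of these epithelial sums, and other markers did not follow in library 7. Epcam was lowest in library 7, at 0.232 CPM, and highest in library 8, at 6.22. Krt7 read 0.154 CPM in library 7 and 17.1 in library 8, and Krt19 read 104 and 123. Red blood cell markers also had their highest sums of the model there, at 340 and 435 CPM against 79.0 to 181. The slopes on transcript length in libraries 7 and 9 were the lowest of the model, at -0.0997 and -0.0959 against -0.0552 to 0.114. The part of any of these in the levels was not tested.

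The 6 melanoma libraries also differed among themselves. Libraries 1, 2 and 3 read 495, 489 and 592 CPM for Eno1 against 267 to 307 in libraries 4, 5 and 6, and 1354, 1218 and 1415 CPM for Tpi1 against 765 to 829. Car9 read 12.5, 8.58 and 13.6 CPM in the first 3 and 3.80 to 5.76 in the others. Slc16a3 read 82.4, 69.5 and 56.8 against 24.4 to 25.9, and Ldha 858, 789 and 1079 against 442 to 464.

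Eno2 and Slc2a3, known as isoforms of neurons, went the other way within the same libraries. Eno2 read 630, 714 and 605 CPM in libraries 1, 2 and 3 and 875 to 975 in libraries 4, 5 and 6, and Slc2a3 93.0, 99.3 and 76.1 against 131 to 151. Eno1 took from 19.3% to 46.1% of the 2 enolases per length within this 1 model. In the same libraries the melanocyte markers took 1.51%, 1.37% and 2.25% of reads in 1, 2 and 3 and 0.711%, 0.446% and 0.359% in 4, 5 and 6. The summed proliferation markers were 961 to 1069 CPM against 241 to 465, and the summed neuron markers 2973 to 3927 CPM against 5351 to 6041. Mki67 went the other way in library 3, at 25.2 CPM against 62.0, 46.4 and 29.9 in libraries 4, 5 and 6. The slope on transcript length was 0.05, 0.06 and -0.19 in libraries 1, 2 and 3 and 0.14, 0.15 and 0.14 in libraries 4, 5 and 6, and its part in these levels was not tested.

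The sums of melanocyte, proliferation and neuron markers thus moved with these members inside the melanoma model, and their part in the differences between models was not tested. The summed astrocyte markers, at 1454 to 2570 CPM, were lower in all melanoma libraries than in lung (3179 to 5126) and breast (3422 to 4187). Gfap alone read 276 to 450 CPM in melanoma, 1494 to 3009 in lung and 1657 to 1915 in breast. Of the 6 astrocyte markers, 3 were called lower in melanoma than in lung and 4 lower than in breast. Slc1a2 overlapped, with a highest value of 1246 CPM in melanoma, 1165 in lung and 1013 in breast. The summed microglia markers were also lower, at 282 to 419 CPM in melanoma against 840 to 1272 in lung and 824 to 1203 in breast. Of these 6 markers, 6 were called lower in melanoma than in lung and 5 lower than in breast.

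**Figure D5:**
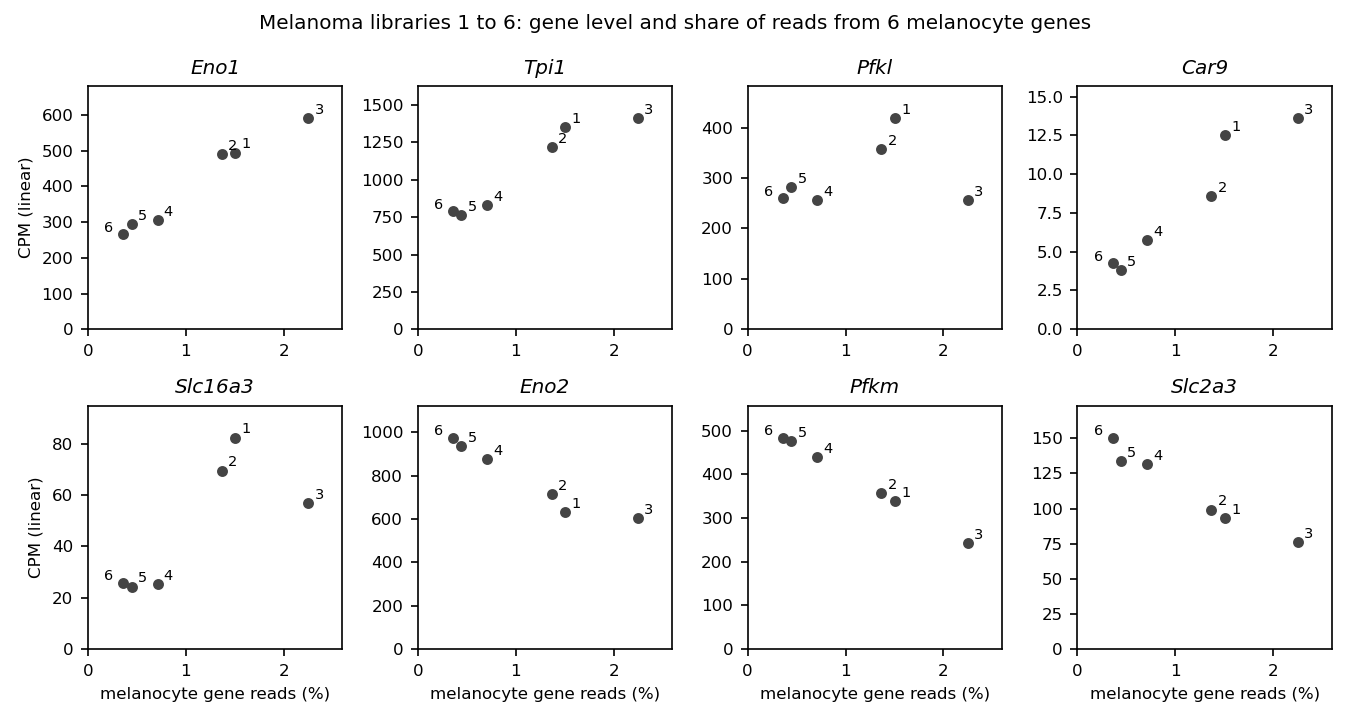
Level (CPM) of 8 members in the 6 melanoma libraries (y axis) against the share of reads from 6 melanocyte markers (percent, x axis), each point a library with its number. Libraries 1, 2 and 3, at 1.37% to 2.25%, hold the high values of Eno1, Tpi1, Car9 and Slc16a3, and libraries 4, 5 and 6, at 0.359% to 0.711%, those of Eno2 and Slc2a3.

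Other genes of these pathways, which are not among the 36, were counted for comparison. Of 11 tested among 17 other glycolysis genes, 4 were called between melanoma and lung (background 23.2% of all genes). Between breast and lung 5 were called (background 18.3%), and between melanoma and breast 7 (background 28.9%). Eno3, the muscle enolase, was the lung gene of the family, at 94.6 ± 31.7 CPM against 18.3 ± 5.5 in melanoma and 11.05 ± 2.42 in breast (SD, n = 6; -2.37 ± 0.24 for melanoma over lung, adjusted p = 2.7e-07, and -3.11 ± 0.24 for breast over lung, adjusted p = 2.0e-08). Slc16a7, the neuronal lactate importer MCT2, was highest in melanoma, at 62.7 ± 17.2 CPM against 17.7 ± 5.2 in lung and 14.2 ± 5.1 in breast, with a log2 fold change of 1.83 ± 0.25 over lung (adjusted p = 1.4e-05). Melanoma, and not breast as for Slc16a3, thus had the highest level of this transporter. Slc2a1, the glucose transporter GLUT1 of the vessel wall and a HIF target, was chosen after its values were seen: it read 195 ± 26.6 CPM in breast, 110 ± 14.8 in lung and 99.2 ± 7.8 in melanoma, with breast over lung at 0.83 ± 0.11 (adjusted p = 1.7e-05).

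Of 20 other hypoxia-pathway genes, 7, 7 and 8 were called in the same 3 comparisons (backgrounds 23.2%, 18.3% and 28.9%). By direction, 2 were higher and 5 lower in melanoma than in lung, and 3 higher and 4 lower in breast than in lung. Between melanoma and breast, 3 were higher and 5 lower in melanoma. The count of 8 between melanoma and breast rests on single libraries, since 5 were called without melanoma library 4 or without breast library 18. Loxl2, a collagen-crosslinking oxidase, was highest in lung, at 18.7 ± 2.5 CPM against 4.54 ± 2.47 in melanoma and 2.996 ± 0.794 in breast (SD, n = 6). Vegfa, the vessel growth factor and a classic HIF target, was chosen after its values were seen, and at 50.5 ± 9.9 CPM was lower in breast than in lung (79.8 ± 14.8; -0.66 ± 0.14, adjusted p = 0.0017) and melanoma (81.2 ± 8.5; melanoma over breast 0.69 ± 0.14, adjusted p = 6.7e-04).

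Of 22 genes that take pyruvate into the citric acid cycle or run it, 7 were called higher in melanoma than in lung (background 8.51%) and 1 lower (background 14.7%). Against breast 8 were called higher in melanoma (background 9.76%) and 1 lower (background 19.2%). Between breast and lung 2 were called (9.09%; background 18.3%). Without the 3 libraries poor in long transcripts 7 were called, a count for which the share of all genes is not given here. The gene lower than in lung was Pdk4, a starvation-induced kinase of pyruvate dehydrogenase, at 8.16 ± 1.73 CPM in melanoma, 34.3 ± 8.7 in lung and 9.88 ± 0.73 in breast (melanoma over lung -2.07 ± 0.17, adjusted p = 2.3e-08). That lower than in breast was Pdk3, a kinase isozyme that HIF is known to induce, though not the only such isozyme. Pdk3 read 33.6 ± 2.3 CPM in melanoma, 35.4 ± 3.7 in lung and 54.4 ± 7.5 in breast (melanoma over breast -0.69 ± 0.10, adjusted p = 3.4e-05). Breast thus had the lowest Pdk1 and the highest Pdk3 of the 3 models.

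In the pentose phosphate pathway 3 of 7 genes were higher in breast than in lung (background 11.2%) and 3 higher than in melanoma (background 19.2%), with none lower. Rpia, ribose-5-phosphate isomerase, read 33.4 ± 3.1 CPM in breast, 22.6 ± 9.0 in melanoma and 14.6 ± 2.5 in lung, and Taldo1, transaldolase, 208 ± 33.9, 122 ± 29.8 and 151 ± 25.2 (SD, n = 6). Breast over lung was 1.20 ± 0.21 for Rpia (adjusted p = 3.7e-04) and 0.46 ± 0.16 for Taldo1 (adjusted p = 0.047), and the latter call was lost in 19 of 29 other fits. Without breast library 18 or 19, or lung library 10 or 11, 1 gene of this pathway was called between breast and lung, and without melanoma library 4, 1 between melanoma and breast. Of 10 tested among 13 gluconeogenesis and glycogen genes, 4 were called between melanoma and lung (background 23.2%). Between breast and lung 2 were called (background 18.3%), and between melanoma and breast 4 (background 28.9%). Gbe1, the glycogen branching enzyme, was highest in melanoma, at 38.1 ± 9.8 CPM against 19.9 ± 1.8 in lung and 17.03 ± 1.60 in breast. Fbp2, the muscle fructose bisphosphatase, was highest in breast, at 7.52 ± 3.87 CPM against 0.632 ± 0.540 in lung and 0.313 ± 0.146 in melanoma, where the 6 libraries together held 461, 50 and 23 reads.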

How the data were processed

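RNA of 18 peritumoral brain samples (RNeasy) was made into directional poly(A)+ libraries, per the labels' protocols. The submitters' processing notes name bcl2fastq and GRCm39. No aligner, counter, annotation, strand setting or handling of multiply matching reads is given in the sources used here. The authors deposited raw counts per Ensembl gene and a table of CPM under upper-case symbols. All 36 members were found in the counts by symbol (GENCODE M21) and 31 in the CPM table. Aldoa had 2 identifiers, and that with more reads was used. The deposited CPM gave whole reads for 100% of 304650 values (tolerance 0.01), which for the 31 members equalled the counts.

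The main model was fitted in edgeR 4.0.16 under R 4.3.3 (robust quasi-likelihood, TMM scaling, filterByExpr, 1 coefficient per model, 18 libraries), with Benjamini-Hochberg adjustment over 17174 genes. The same test on the recovered reads, added after seeing the data, called 3469, 2719 and 4448 genes (melanoma against lung, breast against lung, melanoma against breast). Other alternatives used DESeq2 1.42.0, limma 3.58.1 (pseudocount 0.5 CPM), other scalings and filters, and fewer libraries. The steps were tested on simulated data. TPM were computed from counts and GENCODE M21 exon lengths. Libraries of a model differed by a chi-square of at least 2.68 a degree of freedom, so none repeated another.

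Members and lists were chosen with earlier results of these data known. Values in every library are given for the 3 members per role with the smallest p in the test of any difference, for members set apart in 1 model, and for Hif1a, Gapdh, Ldha, Slc2a3 and Car9. Of each other pathway list the 2 genes with the smallest p are named, except 1 that is not reported here. Library 12 was not analysed here.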

Additional observations from a re-analysis of the deposited data

Results flagged for a closer look

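Of the 108 groups of 6 libraries (36 members in 3 models), 8 had a library whose gap to its nearest neighbour took an unusually large part of the group's range; chance alone flags about 1 group in 20. Melanoma library 3, which was poor in long transcripts, gave 6 of the 8. It was low for Hk1, at 162 CPM against 332 to 408 in the other 5, and for Egln1, at 65.4 against 95.3 to 112. It was high for Ldhb, at 669 CPM against 418 to 472, for Bnip3, at 143 against 77.6 to 93.1, for Bnip3l, at 173 against 117 to 135, and for Ddit4, at 131 against 43.0 to 59.5. In breast library 19, also poor in long transcripts, Pdk1 read 49.3 CPM against 60.2 to 66.6. In lung library 7 Gpi1 read 429 CPM against 408 to 415, a gap that is large only because the other 5 lay so close together.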

How the results depend on the processing

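Of the 41 calls made in the members, 26 held in all fits that left out 1 library and in all other alternatives: 5 of 11 between melanoma and lung, 7 of 9 between breast and lung, and 14 of 21 between melanoma and breast. No alternative gave a call in the opposite direction. With 1 library left out, the members called numbered 7 to 12 between melanoma and lung (main value 11), where melanoma library 1, melanoma library 2 or lung library 13 gave 7, 7 to 11 between breast and lung (9), 18 to 26 between melanoma and breast (21), 15 to 23 in the test of any difference (20) and 12 to 17 set apart in 1 model (16). Without melanoma library 3 and breast libraries 18 and 19 together, 14 members were called between breast and lung, 9 higher and 5 lower, 8 of them among the 9. The backgrounds given above are those of the fit of all 18 libraries. Shares of all genes called in the fits with fewer libraries are not given here, so counts from those fits stand without a background. Of 67 uncalled differences, 22 became calls in some fit. Among the calls in the named genes of other pathway lists, those lost in some fit were Rpia in melanoma against both other models, Taldo1 in breast over lung and Eno3 in melanoma over breast. The test of any difference was not run in DESeq2, limma voom, limma on the deposited CPM or the fits of 2 models. No paired analysis was possible because the models share no library numbers. Counting error bears most on Car9 and Gapdh, the members with the fewest reads, in the shallowest library of 7366250 counts. For Gapdh and the other genes with near-identical copies, the way in which shared reads were assigned adds an uncertainty of unknown size.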
